A study of Mus musculus with 12 samples.

Results

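Antigen presentation was examined through 10 genes of the MHC class II and peptide-loading pathways in bone marrow-derived macrophages (BMDMs) that lack selenoproteins and in their controls. The 10 genes were chosen by name: the class II chains H2-Aa, H2-Ab1 and H2-Eb1, the peptide editor chain H2-DMa, the invariant chain Cd74, the class II coactivator Ciita, the peptide transporter subunits Tap1 and Tap2, tapasin (Tapbp) and beta-2 microglobulin (B2m). All 10 were measured, by 23 probe sets that carry 1 of these symbols alone, out of 18193 genes and 34945 probe sets with 1 symbol. The symbols of 7 of the 10 lie on chromosome 17, where the mouse major histocompatibility complex is.

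The cells came from female c57bl6 mice of 2 genotypes. The mutant, Trspfl/fl-LysM-Cre+/- (called ΔTrspM), deletes both floxed copies of Trsp, the gene for the tRNA that inserts selenocysteine, wherever lysozyme M drives Cre. The control, Trspfl/fl-LysM-Cre-/-, carries the same floxed alleles without Cre. Bone marrow was cultured for 7 days with M-CSF, and cells were harvested after 4 h with lipopolysaccharide (LPS) or without it. RNA was hybridized to Affymetrix mouse arrays, with 3 arrays for each of 4 groups: ΔTrspM with LPS, control with LPS, ΔTrspM unstimulated and control unstimulated. The labels call the arrays of a group biological replicates 1 to 3 and do not say whether each came from its own mouse, so each p-value speaks of variation among these arrays alone, and that variation may be technical. Lysozyme M is active in the myeloid lineage and not in other cells of a culture, and the study's authors name both contaminating cells and cells that escaped deletion. No gene with the symbol of Trsp was among those measured (0 genes), so the arrays do not check the deletion.

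Class II molecules are pairs of an alpha and a beta chain that carry peptides from endosomes to the cell surface for CD4+ T cells. The invariant chain fills their groove until it is cut away, and H2-DM then exchanges its remnant for peptide. CIITA is recruited to class II promoters by the factors on the X box and the Y box and sets how much of these genes is made; interferon gamma is its classical inducer in macrophages. Class I molecules, in contrast, receive peptides that TAP pumps into the endoplasmic reticulum, with tapasin holding the empty class I chain beside the transporter and beta-2 microglobulin as its light chain.

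Promoter sequences were read for the boxes that class II promoters are known for. Windows of the 250 bases before the start were searched in the RefSeq promoter table (mouse build GRCm38.p6), which held 7 windows for 6 of the 10 genes. It held no entry for H2-Ab1, Cd74, Ciita and Tap2. The 2 class II chains with a window are shown first because their values follow each other below. Their X box core (GCAAC) and the Y box that follows it (ATTGG, the reverse complement of CCAAT) are in capitals. B2m is shown for contrast, with its match to the interferon-stimulated response element (ISRE) and its Y box in capitals. The stretches are H2-Aa at chr17:34287842-34287929 on the minus strand, H2-Eb1 at chr17:34305751-34305837 on the plus strand and B2m at chr2:122147518-122147667 on the plus strand, each written 5′ to 3′ along its gene.
H2-Aa: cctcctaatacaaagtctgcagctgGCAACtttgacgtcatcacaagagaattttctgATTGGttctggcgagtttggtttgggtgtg
H2-Eb1: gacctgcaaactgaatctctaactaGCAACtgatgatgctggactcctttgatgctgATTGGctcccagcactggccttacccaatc
B2m: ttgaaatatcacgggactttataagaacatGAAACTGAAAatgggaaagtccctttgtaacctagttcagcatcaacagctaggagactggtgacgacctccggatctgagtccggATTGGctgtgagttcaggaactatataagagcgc

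Counted from the start of the gene, with -1 the base before it, the GCAAC of H2-Aa began at -81 and its ATTGG at -48, 33 bases apart. In H2-Eb1 they began at -91 and -59, 32 bases apart. H2-Eb1 also held CCAAT at -35, left in lower case above. That pair, in this order and 30 to 40 bases apart, was in 78 of 32851 windows (0.237%). Its shortened letters GCAAC, its order and its spacing were all chosen after these sequences had been read, so this share is a description and no test. The window of H2-DMa, the other class II gene with one, held CCAAT on the opposite strand at -198 and no such pair. Singly the letters are common: CCAAT on either strand was in 33.8% of windows and in a window of each of the 6 genes. GCAAC on either strand was in 29.9% of windows. AGCAAC, the longer form that was searched first, was in 12.2% of windows and among the members in H2-Eb1. The ISRE was in 2.98% of windows and among the members in B2m, at -139. The gamma-activated site TTCNNNGAA was in 7.02% of windows and in none of the members' 7. These are matches of letters, searched on both strands, and not measured binding sites.

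All levels below are log2 of the quantile-normalized array signal after 16 was added, so a signal of 0 reads 4.00 and the brightest gene on any array read 14.25. Values of a group are given in the order of replicates 1, 2 and 3. Differences are in the same log2 units, with the standard error (SE) from limma over all 12 arrays, and a gene was called when its Benjamini-Hochberg adjusted p over all 18193 genes was under 0.05. The probe set of highest mean signal stands for a gene. The LPS-stimulated ΔTrspM array of replicate 2 was dim before normalization: 47.7% of its probe sets read under 16, against 16.1% to 28.8% on the other 11 arrays. Before normalization replicate 2 had the lowest median signal in each of the 4 groups. That median was 17.7 against 44.7 and 79.8 in LPS-stimulated ΔTrspM cells and 43.5 against 79.7 and 83.7 in LPS-stimulated control cells. It was 61.1 against 77.9 and 101.1 in unstimulated ΔTrspM cells and 76.7 against 95.4 and 85.2 in unstimulated control cells. All 10 macrophage markers on the list, among them Csf1r and Lyz2, were above 7 (a signal of 112) on at least 1 array, and their summed signal was between 78181 and 94348 on every array. Several of them, Lyz2 included, lie near the top of the scale, where such a sum can hide differences. Lyz2, the gene whose promoter drives Cre, read 13.66, 13.99 and 13.68 in LPS-stimulated ΔTrspM cells, 13.13, 13.47 and 13.40 in LPS-stimulated control cells, 13.62, 13.69 and 13.64 in unstimulated ΔTrspM cells and 13.41, 13.29 and 13.54 in unstimulated control cells.

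Without regard to replicate number, the class II chains did not differ between the groups by more than they differed within each group. Compared within a replicate number, H2-Ab1 and H2-Eb1 were called higher with LPS in ΔTrspM cells, and neither was called in control cells. Those differences in ΔTrspM cells were 1.07 ± 0.18 for H2-Ab1 and 0.84 ± 0.19 for H2-Eb1, taken up again below. H2-Aa, the alpha chain of the I-A molecule, read 11.87, 13.33 and 11.22 in LPS-stimulated ΔTrspM cells, 12.08, 13.49 and 11.41 in LPS-stimulated control cells, 11.75, 13.20 and 10.87 in unstimulated ΔTrspM cells and 12.43, 13.62 and 11.83 in unstimulated control cells. In each group replicate 2 was the highest and replicate 3 the lowest, and the 4 groups overlapped. H2-Ab1, its beta chain, read 11.21, 12.96 and 10.83 in LPS-stimulated ΔTrspM cells, 11.38, 13.31 and 10.75 in LPS-stimulated control cells, 9.88, 12.34 and 9.57 in unstimulated ΔTrspM cells and 10.98, 13.09 and 10.49 in unstimulated control cells. The same order of replicates held in each group. H2-Eb1, the beta chain of I-E, read 11.27, 12.76 and 10.06 in LPS-stimulated ΔTrspM cells, 11.11, 13.10 and 10.21 in LPS-stimulated control cells, 10.22, 12.41 and 8.93 in unstimulated ΔTrspM cells and 11.25, 13.28 and 10.17 in unstimulated control cells. Its replicates spanned the widest range of the 10 genes, 2.70 to 3.48 within a group (6.51-fold to 11.2-fold). Its partner chain H2-Ea, which has no functional copy in this strain background, read 4.98 to 5.98 on the 12 arrays, near the level of no signal.

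Cd74, the invariant chain, followed the same order over a narrower range. It read 13.25, 13.80 and 12.57 in LPS-stimulated ΔTrspM cells, 13.20, 13.83 and 12.71 in LPS-stimulated control cells, 13.03, 13.48 and 12.61 in unstimulated ΔTrspM cells and 13.28, 13.73 and 12.86 in unstimulated control cells. The replicates of a group differed by 0.87 to 1.22. These values lie close to the top of the scale, where a fold change can be compressed.

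H2-DMa did not share this order. It read 9.39, 9.15 and 9.00 in LPS-stimulated ΔTrspM cells, 9.46, 8.38 and 9.35 in LPS-stimulated control cells, 9.17, 9.11 and 9.83 in unstimulated ΔTrspM cells and 10.03, 9.59 and 10.24 in unstimulated control cells. Replicate 2 was the highest in 0 of the 4 groups. Ciita was dim and read 7.71, 7.92 and 6.99 in LPS-stimulated ΔTrspM cells, 7.89, 6.80 and 6.78 in LPS-stimulated control cells, 6.09, 6.36 and 6.44 in unstimulated ΔTrspM cells and 6.27, 6.33 and 6.06 in unstimulated control cells. Both LPS-stimulated groups lay above both unstimulated groups, and replicate 2 was the highest in 2 of the 4 groups.

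**Figure D1:**
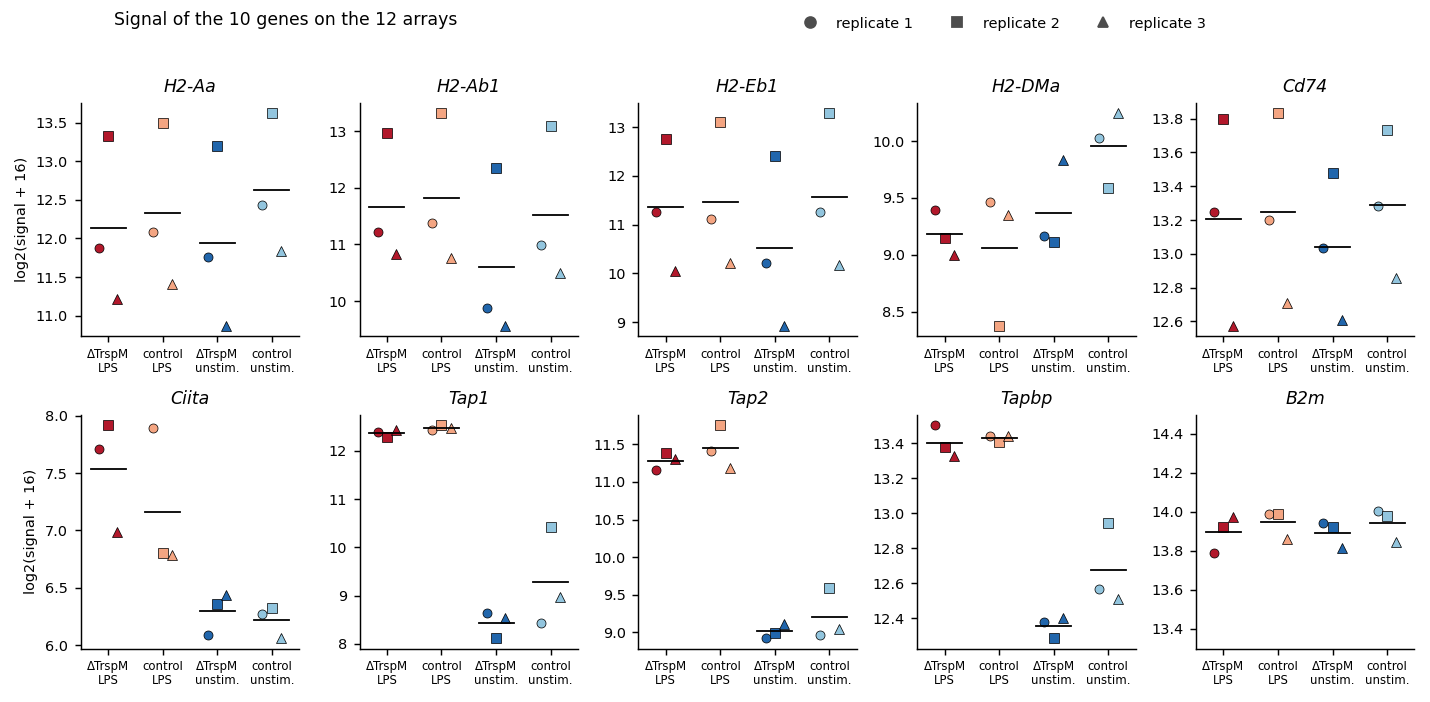
Level of each of the 10 genes, as log2(signal + 16), on the 12 arrays. Points are arrays, with the marker giving the replicate number and the bar the mean of 3 arrays, and each panel has its own axis. In H2-Aa, H2-Ab1, H2-Eb1 and Cd74 the square of replicate 2 is at the top of all 4 groups, while Tap1, Tap2 and Tapbp separate LPS-stimulated from unstimulated arrays.

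The replicate number was then tested as a factor of its own, beside the 4 groups, a test added after this order had been seen. It was called for 4 of the 10 genes, H2-Eb1 (adjusted p = 0.000386 from limma's F test), H2-Ab1 (0.000507), H2-Aa (0.000583) and Cd74 (0.00699), against 6.46% of all genes tested. Replicate 2 exceeded replicate 3 by 3.05 ± 0.16 for H2-Eb1, 2.52 ± 0.15 for H2-Ab1, 2.08 ± 0.14 for H2-Aa and 1.02 ± 0.13 for Cd74 (SE, 4 arrays each). The range over replicate numbers of H2-Eb1 ranked 8 of the 18193 genes and that of H2-Ab1 ranked 40. The order 2, 1, 3 in all 4 groups, which these 4 genes had, was found in 137 genes (0.753%), replicate 2 highest in all 4 groups in 3.85% of genes, and a range over 2 was found in 0.797% of genes. H2-DMa (adjusted p = 0.261), Ciita (0.553), Tap1 (0.769), Tap2 (0.390), Tapbp (0.915) and B2m (0.905) were not called. In bulk RNA, more cells that express class II and more class II RNA per cell cannot be told apart. Replicate 2 was also the array of lowest median signal in each group before normalization. The part of that in the order of these 4 genes was not tested.

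**Figure D2:**
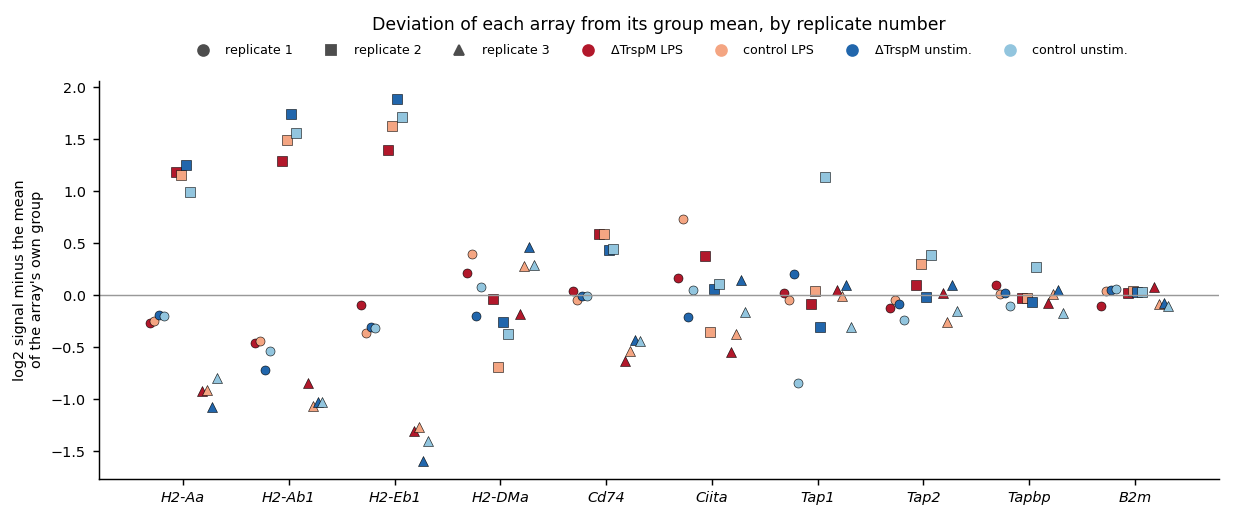
Deviation of each array from the mean of its own group of 3 arrays, in log2 units, for the 10 genes, with arrays sorted within a gene by replicate number. For H2-Aa, H2-Ab1, H2-Eb1 and Cd74 all 4 squares (replicate 2) lie above 0 and all 4 triangles (replicate 3) below it, and for B2m the 12 arrays stay close to 0.

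Other probe sets of the class II chains gave the same order. All 4 probe sets of H2-Aa and all 3 of H2-Ab1 had replicate 2 highest in all 4 groups. The dimmest of H2-Aa (mean level 8.12) read 8.20, 10.02 and 6.37 in LPS-stimulated ΔTrspM cells, 8.19, 10.28 and 6.31 in LPS-stimulated control cells, 7.04, 9.61 and 6.44 in unstimulated ΔTrspM cells and 7.75, 10.22 and 6.97 in unstimulated control cells. Over the 12 arrays the correlation of a gene with the mean of the other class II genes, given as a description, was 0.95 for H2-Aa, 0.84 for H2-Ab1, 0.93 for H2-Eb1, 0.91 for Cd74 and -0.43 for H2-DMa. Arrays of 1 number share whatever the number stands for, so these 12 points are not independent.

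Macrophage markers were read beside this pattern first. Of the 10, 1 had replicate 2 highest in all 4 groups (3.85% of all genes did) and 1 had it lowest in all 4, a share not counted over all genes. The integrin Itgam read 9.69, 11.91 and 10.63 in LPS-stimulated ΔTrspM cells, 11.29, 12.17 and 10.08 in LPS-stimulated control cells, 11.48, 11.62 and 10.33 in unstimulated ΔTrspM cells and 12.13, 12.26 and 10.85 in unstimulated control cells. Replicate 2 exceeded replicate 3 by 1.51 ± 0.37 (adjusted p = 0.0362 from limma for that difference). The number as a whole was not called (adjusted p = 0.0861 from limma's F test). Mertk, a receptor for apoptotic cells, was lowest on replicate 2, at -0.83 ± 0.19 for replicate 2 minus replicate 3, and its number was called (adjusted p = 0.04997, just under the threshold). Their part in the class II pattern was not tested.

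Markers of other cell types were read next. B cells and dendritic cells are the other professional carriers of class II, and 6 of 7 measured B cell markers stayed under 7 on all 12 arrays, with a summed signal of 221 to 321 in LPS-stimulated ΔTrspM cells, 177 to 376 in LPS-stimulated control cells, 234 to 344 in unstimulated ΔTrspM cells and 278 to 374 in unstimulated control cells. Of 9 measured dendritic cell markers 5 (Flt3, Xcr1, Cd209a, Siglech and Dpp4) stayed under 7 on all arrays, and 0 had replicate 2 highest in all 4 groups. The sum of the dendritic list was 7574 to 9023 in LPS-stimulated ΔTrspM cells, 6367 to 10525 in LPS-stimulated control cells, 5870 to 7158 in unstimulated ΔTrspM cells and 4360 to 9545 in unstimulated control cells. Most of it was Itgax, an integrin that macrophages also express, which read 12.81, 13.01 and 12.78 in LPS-stimulated ΔTrspM cells, 13.26, 12.53 and 12.68 in LPS-stimulated control cells, 12.75, 12.47 and 12.47 in unstimulated ΔTrspM cells and 13.19, 11.99 and 12.70 in unstimulated control cells. Its replicate number was not called (adjusted p = 0.319). The mean level of the 9 markers, in which each gene counts alike, was 7.37, 6.93 and 6.88 in LPS-stimulated ΔTrspM cells, 7.24, 6.59 and 6.48 in LPS-stimulated control cells, 6.41, 6.43 and 6.05 in unstimulated ΔTrspM cells and 6.33, 6.39 and 6.17 in unstimulated control cells. It was lowest on replicate 3 in all 4 groups, and in the unstimulated groups it had the order of the class II chains; its part in their pattern was not tested. T and NK cell markers stayed under 7 on all arrays, 7 of 7, with sums of 92.1 to 149 in LPS-stimulated ΔTrspM cells, 123 to 135 in LPS-stimulated control cells, 105 to 120 in unstimulated ΔTrspM cells and 117 to 138 in unstimulated control cells.

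Of 8 stromal markers measured, 3 had replicate 2 lowest in all 4 groups and 0 had it highest in all 4 (3.85% of all genes did). The share of all genes with replicate 2 lowest in all 4 groups was not counted, so the 3 have no background beside them. Pdgfra and Thy1, 2 of the 8, stayed under 7 on all arrays. Pdgfra gave 0.38 ± 0.22 for replicate 2 minus replicate 3 and its number was not called (adjusted p = 0.467). Col3a1, a fibrillar collagen chain, read 8.81, 7.64 and 11.05 in LPS-stimulated ΔTrspM cells, 8.27, 6.24 and 9.46 in LPS-stimulated control cells, 8.27, 6.57 and 11.13 in unstimulated ΔTrspM cells and 8.34, 5.66 and 9.76 in unstimulated control cells. Its range over replicate numbers ranked 3 of all genes, with replicate 2 below replicate 3 by -3.82 ± 0.30 (difference 2 minus 3, adjusted p = 0.00140 for the number). The stromal sum was 5604, 2923 and 8522 in LPS-stimulated ΔTrspM cells, 4005, 4714 and 4691 in LPS-stimulated control cells, 4623, 861 and 7436 in unstimulated ΔTrspM cells and 2469, 475 and 7054 in unstimulated control cells. Replicate 2 was the lowest in 3 of the 4 groups and the highest in LPS-stimulated control cells, where Pdgfrb read 11.02, 11.95 and 11.06. The part of these markers in the class II pattern was not tested.

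**Figure D3:**
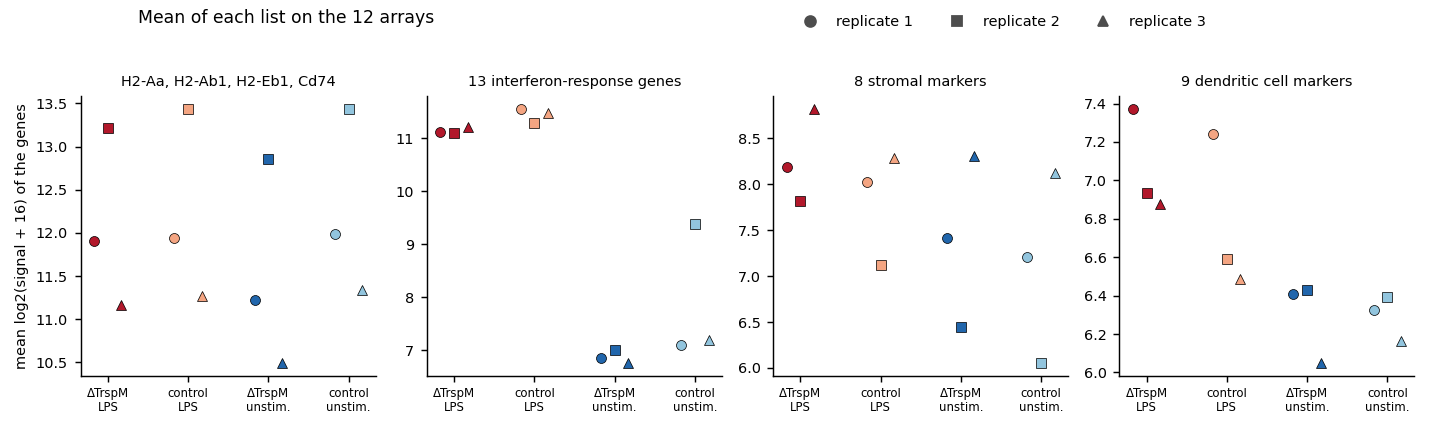
Mean level, as log2(signal + 16), of 4 gene lists on each of the 12 arrays, with the marker giving the replicate number. The mean of H2-Aa, H2-Ab1, H2-Eb1 and Cd74, which leaves out H2-DMa, is highest on replicate 2 in all 4 groups. These 4 genes were already seen to have that order. The stromal mean is lowest on replicate 2 in all 4 groups. The dendritic mean is lowest on replicate 3 in all 4 groups and highest on replicate 2 in the unstimulated groups alone. The interferon-response mean of replicate 2 in unstimulated control cells stands above the other 5 unstimulated arrays.

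LPS raised the peptide transporter and tapasin in both genotypes. Tap1 read 12.40, 12.29 and 12.43 in LPS-stimulated ΔTrspM cells, against 8.63, 8.12 and 8.53 in unstimulated ΔTrspM cells. It read 12.44, 12.53 and 12.48 in LPS-stimulated control cells, against 8.44, 10.42 and 8.98 in unstimulated control cells. The stimulated and unstimulated arrays did not overlap in either genotype, and replicate 2 of the unstimulated control cells stood above the other 5 unstimulated arrays. The difference was 3.95 ± 0.40 in ΔTrspM cells (15.4-fold, adjusted p = 9.37e-05) and 3.21 ± 0.40 in control cells (9.23-fold, adjusted p = 0.000343). No other probe set of Tap1 was called. The brightest of them (mean level 6.25) rose by 1.76 ± 0.68 in ΔTrspM cells and 2.05 ± 0.68 in control cells. Its adjusted p from limma over all probe sets was 0.121 and 0.0723. Those with mean levels of 4.62 and 4.97, near the level of no signal, rose by 0.20 to 0.32. Tap2 read 11.16, 11.38 and 11.30 in LPS-stimulated ΔTrspM cells, against 8.93, 9.00 and 9.12 in unstimulated ΔTrspM cells. It read 11.41, 11.75 and 11.19 in LPS-stimulated control cells, against 8.96, 9.59 and 9.05 in unstimulated control cells. The difference of Tap2 was 2.27 ± 0.22 in ΔTrspM cells (4.81-fold, adjusted p = 7.86e-05) and 2.25 ± 0.22 in control cells (4.76-fold, adjusted p = 6.83e-05).

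Tapbp, the bridge between TAP and class I, read 13.50, 13.38 and 13.33 in LPS-stimulated ΔTrspM cells, against 12.37, 12.29 and 12.40 in unstimulated ΔTrspM cells. It read 13.44, 13.41 and 13.44 in LPS-stimulated control cells, against 12.57, 12.94 and 12.51 in unstimulated control cells. It rose by 1.05 ± 0.17 in ΔTrspM cells (2.07-fold, adjusted p = 0.00215) and by 0.76 ± 0.17 in control cells (1.69-fold, adjusted p = 0.0118). The control call was lost without unstimulated control replicate 1 (adjusted p = 0.0510) or replicate 3 (0.0519), with the arrays of the contrast fitted alone (0.0616) and with no scaling of the arrays (0.458). The other probe set of Tapbp (mean level 10.69) rose by 1.47 ± 0.50 in ΔTrspM cells and 1.26 ± 0.50 in control cells. It was called in neither (adjusted p = 0.0793 and 0.129 from limma over all probe sets). B2m read 13.79 to 13.97 in LPS-stimulated ΔTrspM cells, 13.86 to 13.99 in LPS-stimulated control cells, 13.82 to 13.94 in unstimulated ΔTrspM cells and 13.85 to 14.01 in unstimulated control cells. Its LPS difference was 0.00 ± 0.16 in both genotypes (95% interval -0.34 to 0.35), at a level near the top of the scale.

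Ciita rose with LPS in ΔTrspM cells by 1.24 ± 0.32 (2.37-fold, adjusted p = 0.0235). In control cells its difference of 0.94 ± 0.32 did not pass the threshold (1.92-fold, adjusted p = 0.0754; 0.0468 among genes with a mean level of at least 6), although all 3 stimulated arrays lay above all 3 unstimulated ones in both genotypes. The difference between those responses was 0.31 ± 0.46 (95% interval -0.70 to 1.31, adjusted p = 1.00). The ΔTrspM call was lost without any 1 of 5 ΔTrspM arrays: unstimulated replicate 1 (1.14, adjusted p = 0.0911), unstimulated replicate 2 (1.27, 0.0575), unstimulated replicate 3 (1.32, 0.0505), LPS-stimulated replicate 1 (1.16, 0.0664) or LPS-stimulated replicate 2, the dim array (1.05, 0.0848). Its other probe sets rose by less: 1.03 ± 0.42 and 0.61 ± 0.54 in ΔTrspM cells, with neither called (adjusted p = 0.138 and 0.539 over all probe sets).

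Of the 10 genes, 4 were called higher with LPS in ΔTrspM cells (7.29% of all genes were) and 3 in control cells (7.09%), and 0 were called lower in ΔTrspM cells (8.51%) or in control cells (8.54%). Arrays with and without LPS did not overlap for 4 genes in ΔTrspM cells, all higher (14.8% of all genes lay so, and 19.5% in the lower direction), and for 5 in control cells, 4 higher (14.7%) and 1 lower (19.4%). In same-numbered pairs 7 of the 10 were higher in 3 of 3 in ΔTrspM cells (22.6% of all genes were) and 0 lower (28.4%), against 5 higher (23.7%) and 2 lower (31.9%) in control cells. The median difference of the 10 was 0.95 in ΔTrspM cells, against -0.03 over all genes, and 0.15 in control cells, against -0.05 over all genes. These medians moved when 1 array was left out, which leaves the replicate numbers unbalanced. That of ΔTrspM cells was 0.30 without unstimulated ΔTrspM replicate 3 and 0.28 without the dim LPS-stimulated ΔTrspM replicate 2. That of control cells was 0.83 without unstimulated control replicate 2 and 0.65 without LPS-stimulated control replicate 3. With replicate 2 left out in all groups and arrays compared within a replicate number, the medians were 1.06 in ΔTrspM cells and 0.16 in control cells. The 3 class II chains and Cd74 gave values of 0.20 ± 0.75 (H2-Aa), 1.07 ± 0.95 (H2-Ab1), 0.84 ± 1.08 (H2-Eb1) and 0.17 ± 0.39 (Cd74) in ΔTrspM cells. In control cells they gave -0.30 ± 0.75 (H2-Aa), 0.29 ± 0.95 (H2-Ab1), -0.09 ± 1.08 (H2-Eb1) and -0.04 ± 0.39 (Cd74). None of these was called, and the SE holds the spread between replicate numbers described above.

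With the replicate number as a block, which compares arrays of 1 number, 2 chains were called in ΔTrspM cells. H2-Ab1 was higher with LPS by 1.07 ± 0.18 (adjusted p = 0.00296), by 1.33, 0.62 and 1.26 in pairs 1, 2 and 3. H2-Eb1 was higher by 0.84 ± 0.19 (adjusted p = 0.0120), by 1.05, 0.35 and 1.13 in the pairs. Both calls also stood when replicate 2 was left out in all groups (H2-Ab1 1.30 ± 0.18, adjusted p = 0.0129, and H2-Eb1 1.09 ± 0.19, adjusted p = 0.0237). In control cells the blocked values were 0.29 ± 0.18 for H2-Ab1 (adjusted p = 0.287) and -0.09 ± 0.19 for H2-Eb1 (0.782). The blocked difference between the 2 responses was 0.78 ± 0.25 for H2-Ab1 (adjusted p = 1.00) and 0.93 ± 0.27 for H2-Eb1 (0.971), so the responses of the genotypes were not shown to differ. With the block 9.28% of all genes were called higher in ΔTrspM cells. H2-Aa was higher in 3 of 3 pairs of ΔTrspM cells and lower in 3 of 3 pairs of control cells, and its blocked values of 0.20 ± 0.16 and -0.30 ± 0.16 were not called (adjusted p = 0.420 and 0.212).

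H2-DMa went the other way in control cells, where LPS-stimulated arrays (8.38 to 9.46) lay below all unstimulated ones (9.59 to 10.24). The difference was -0.89 ± 0.32 (adjusted p = 0.0862), and with the block -0.89 ± 0.26 (adjusted p = 0.0351), where 13.4% of all genes were called lower. Without replicate 2 in all groups it was -0.73 ± 0.29 (adjusted p = 0.170), and without LPS-stimulated control replicate 2 alone -0.55 ± 0.28 (0.277). The other, dim probe set of H2-DMa (mean level 6.39) gave 0.59 ± 0.40 in control cells (adjusted p = 0.398 over all probe sets), and the mean of both probe sets gave -0.15 (0.792). In ΔTrspM cells it was -0.19 ± 0.32 (adjusted p = 0.754), and the 2 responses differed by 0.70 ± 0.45 (adjusted p = 1.00).

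**Figure D4:**
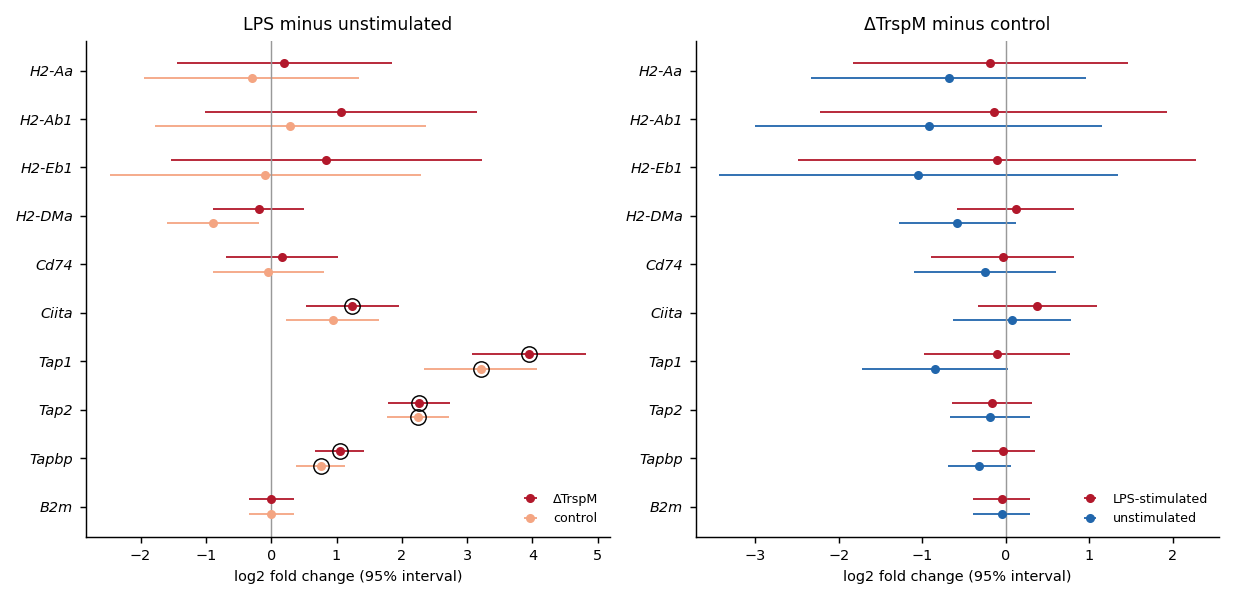
Log2 fold change of the 10 genes with its 95% interval, LPS minus unstimulated on the left and ΔTrspM minus control on the right, from limma over 12 arrays without the replicate block. Ringed points have an adjusted p under 0.05 and belong to Tap1, Tap2 and Tapbp in both genotypes and to Ciita in ΔTrspM cells, and no ring stands in the panel of genotype differences.

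Genes around the members moved with LPS as follows. Of 14 measured transcription factors and regulators of class II, 6 were called higher and 1 lower in ΔTrspM cells and 5 higher and 2 lower in control cells. Irf1, an interferon-induced factor, rose by 3.48 ± 0.27 in ΔTrspM cells and 3.05 ± 0.27 in control cells (adjusted p = 2.21e-05 and 4.09e-05), and Nlrc5, the coactivator of class I genes and a relative of CIITA, by 3.64 ± 0.40 and 3.59 ± 0.40 (0.000182 and 0.000189). Socs1, an inhibitor of interferon signalling, rose by 5.16 ± 0.50 in ΔTrspM cells and 5.17 ± 0.50 in control cells (adjusted p = 8.07e-05 and 6.97e-05). Prdm1, a repressor known to act on Ciita, rose by 2.54 ± 0.41 in ΔTrspM cells and 2.49 ± 0.41 in control cells (0.00203 and 0.00208). Of the RFX subunits that bind the X box, Rfx5 rose by 1.37 ± 0.19 in ΔTrspM cells and 1.21 ± 0.19 in control cells (0.000901 and 0.00167). Rfxap fell by 0.92 ± 0.22 in ΔTrspM cells and 0.85 ± 0.22 in control cells (0.0168 and 0.0229). Nfya, a subunit of the Y box factor, gave -0.88 ± 0.28 in ΔTrspM cells (0.0533) and was called lower in control cells, by -1.01 ± 0.28 (0.0307); with the replicate block it was called lower in ΔTrspM cells too (0.0283).

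Among 9 measured genes of class I peptide supply and loading, 4 were called higher in each genotype and 0 lower. With the replicate block 5 were called higher in ΔTrspM cells and 6 in control cells, Psme1 being added in both and Erap1 in control cells, and 1, Pdia3, was called lower in control cells. The immunoproteasome subunits Psmb8, Psmb9 and Psmb10 rose by 1.15 ± 0.22, 2.06 ± 0.28 and 1.63 ± 0.20 in ΔTrspM cells and by 0.88 ± 0.22, 1.75 ± 0.28 and 1.23 ± 0.20 in control cells, and the tapasin relative Tapbpl by 1.68 ± 0.27 and 1.97 ± 0.27 (adjusted p between 0.000363 and 0.0169 for the 4 genes). Of 6 measured class I heavy chains and relatives, 2 were called higher in ΔTrspM cells and 0 in control cells, and none was called lower. With the replicate block Mr1, a class I-like molecule that presents microbial metabolites, was called lower in both genotypes, by -1.31 ± 0.22 in ΔTrspM cells and -0.85 ± 0.22 in control cells (adjusted p = 0.00324 and 0.0240). The classical chains H2-K1 and H2-D1 gave 0.03 ± 0.16 and 0.13 ± 0.16 in ΔTrspM cells and 0.03 ± 0.16 and -0.08 ± 0.16 in control cells, near the top of the scale. Several class I genes are near-identical in sequence, so their probe sets may read more than 1 gene.

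Of 8 measured genes of class II antigen processing and turnover, 2 were called higher in each genotype and 0 lower. These were Cd83, which protects surface class II from MARCH ubiquitin ligases, by 3.72 ± 0.35 in ΔTrspM cells and 3.80 ± 0.35 in control cells, and the cytokine Il10 by 3.05 ± 0.62 and 3.62 ± 0.62 (adjusted p between 4.73e-05 and 0.00701). The ligase Marchf8 was lowest on replicate 2 in all 4 groups and followed the replicate number (adjusted p = 0.0152), with replicate 2 minus replicate 1 at -1.04 and replicate 2 minus replicate 3 at -0.85. With the replicate block it was called lower with LPS in ΔTrspM cells, by -0.77 ± 0.20 (adjusted p = 0.0204). Of 5 other class II chains and editors measured, 0 were called in ΔTrspM cells and 2 were called higher in control cells, H2-Oa by 1.60 ± 0.45 (adjusted p = 0.0337) and H2-Eb2 by 1.68 ± 0.50 (0.0433), both at levels of at most 7.55. With the replicate block H2-Eb2 was no longer called (0.0561). In ΔTrspM cells H2-Oa gave -0.02 ± 0.45 and H2-Eb2 0.87 ± 0.50.

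Interferon genes were read because they induce both pathways. Ifng gave 0.24 ± 0.34 in ΔTrspM cells and 0.43 ± 0.34 in control cells with LPS (adjusted p = 0.703 and 0.454), while Ifnb1, the type I interferon that LPS induces, rose by 4.04 ± 0.34 in ΔTrspM cells and by 4.02 ± 0.34 in control cells (3.29e-05 and 2.84e-05). Of the 6 measured genes of the interferon gamma pathway list, which holds Ifnb1, 2 were called higher and 0 lower in each genotype. Of 13 measured interferon-response genes, 11 were called higher and 0 lower in each genotype, with median differences of 4.26 in ΔTrspM cells and 3.57 in control cells.

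Between genotypes, 0 of the 10 genes were called in LPS-stimulated cells, where 0 of all genes were called higher and 0.011% lower, and 0 in unstimulated cells, where 0 of all genes were called in either direction (limma). At an unadjusted p under 0.05, 0 of the 10 passed in either state. Over all genes, 652 higher and 399 lower passed that unadjusted threshold in LPS-stimulated cells and 204 higher and 231 lower in unstimulated cells. After LPS the differences ran from -0.19 (H2-Aa) to 0.38 (Ciita), with a median of -0.08 against 0.04 over all genes. In same-numbered pairs 2 of the 10 were lower in 3 of 3 (12.5% of all genes were) and 0 higher (18.5%), and the arrays of the genotypes did not overlap for 1, Tap1, which was lower (3.77% of all genes lay so, and 5.37% in the higher direction). The narrowest interval was that of B2m (-0.40 to 0.29) and the widest that of H2-Eb1 (-2.49 to 2.27).

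In unstimulated cells the mean was lower in ΔTrspM cells for 9 of the 10 genes, with a median difference of -0.45 against 0.04 over all genes. The class II genes gave -0.69 ± 0.75 (H2-Aa), -0.92 ± 0.95 (H2-Ab1), -1.05 ± 1.08 (H2-Eb1), -0.58 ± 0.32 (H2-DMa) and -0.25 ± 0.39 (Cd74). In same-numbered pairs 7 of the 10 were lower in ΔTrspM cells in 3 of 3, as 11.5% of all genes were, and 0 were higher (17.8%); these 7 share arrays and are not independent of each other. The pairs of H2-Eb1 gave -1.03, -0.87 and -1.24, those of H2-Ab1 -1.10, -0.75 and -0.92, and those of H2-Aa -0.67, -0.42 and -0.96. With the replicate block, 0 of the 10 were called in either state. At an unadjusted p under 0.05 in the blocked fit, 0 of the 10 passed in LPS-stimulated cells and 4 passed in unstimulated cells, all lower in ΔTrspM cells, where 343 of the 18193 genes were lower and 457 higher. The blocked values were -1.05 ± 0.19 for H2-Eb1 (unadjusted p = 0.000353, adjusted p = 0.649 from limma), -0.92 ± 0.18 for H2-Ab1 (0.000569 and 0.649), -0.69 ± 0.16 for H2-Aa (0.00170 and 0.773) and -0.58 ± 0.26 for H2-DMa (0.0486 and 1.00). Without replicate 2 in all groups, the blocked values of the first 3 were -1.13 for H2-Eb1, -1.01 for H2-Ab1 and -0.82 for H2-Aa. Their adjusted p from limma was then 0.948. In LPS-stimulated cells the same pairs gave 0.16, -0.34 and -0.15 for H2-Eb1, -0.16, -0.35 and 0.07 for H2-Ab1 and -0.21, -0.16 and -0.19 for H2-Aa. The interaction was called for 0 of all genes by limma, with 308 higher and 247 lower at an unadjusted p under 0.05.

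Without replicate 2 of the unstimulated control cells, which leaves the replicate numbers unbalanced, the values were -0.19 for H2-Aa, -0.14 for H2-Ab1, -0.19 for H2-Eb1, -0.77 for H2-DMa and -0.03 for Cd74 and the median over the 10 genes was -0.16. With all 3 arrays of each unstimulated group kept, the genotypes did not overlap for 1 of the 10, Tapbp, which was lower in ΔTrspM cells (3.17% of all genes lay so, and 4.16% in the higher direction).

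The size of the Tap1 and Tapbp differences in unstimulated cells rested on 1 array. Tap1 differed by -0.85 ± 0.40 and Tapbp by -0.32 ± 0.17 between ΔTrspM and control (adjusted p = 1.00), and without replicate 2 of the unstimulated control cells the values were -0.28 ± 0.23 and -0.18 ± 0.18. The summed signal of the interferon-response list was 2261, 2811 and 2390 in unstimulated ΔTrspM cells and 2681, 21307 and 2765 in unstimulated control cells. Replicate 2 of the control cells was the highest of its group for 12 of 13 genes of the list, and Tap1 read 10.42 there. Without it the LPS difference in control cells was 3.78 ± 0.23 for Tap1, 2.44 ± 0.21 for Tap2 and 0.89 ± 0.18 for Tapbp, all still called (adjusted p = 4.09e-06, 4.99e-05 and 0.00727). H2-Aa, H2-Ab1 and H2-Eb1 were high on replicate 2 of the other 3 groups too, where the interferon sum of replicate 2 was the lowest of 3 with LPS and the highest of 3 without it (62067 against 65871 and 73831 in LPS-stimulated ΔTrspM cells, 70737 against 80876 and 81026 in LPS-stimulated control cells, and 2811 against 2261 and 2390 in unstimulated ΔTrspM cells). The part of the interferon response in the class II pattern was not tested.

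The genes whose pattern over the 12 arrays was most like the mean of the standardized class II genes, among those with a mean level of at least 6, were Pltp (r = 0.95), Ahrr (0.91), Fxyd2 (0.90), Clec4a3 (0.88) and P4ha1 (0.87). Pltp, a phospholipid transfer protein, read 11.28, 12.92 and 10.72 in LPS-stimulated ΔTrspM cells, 11.62, 12.64 and 10.63 in LPS-stimulated control cells, 10.84, 12.12 and 10.66 in unstimulated ΔTrspM cells and 11.24, 12.81 and 11.02 in unstimulated control cells. It had the replicate order of the class II chains in all 4 groups. For the mean of Tap1, Tap2, Tapbp and B2m the closest were AI504432 (0.98), Azi2 (0.98), Eif2ak2 (0.98), Ddx60 (0.98) and Stat2 (0.97), of which Eif2ak2 encodes an interferon-induced kinase and Stat2 a transducer of type I interferon signals. Within that set the correlation with the mean of the others was 0.89 for Tap1, 0.89 for Tap2, 0.88 for Tapbp and 0.08 for B2m. These correlations over 12 arrays describe likeness of pattern alone.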

How the data were processed

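The 12 arrays were grouped by the genotype and stimulus in their labels. The authors normalized the arrays with Expression Console and deposited 1 linear signal intensity per probe set (45101 in all), and how probes were summarized is not stated there. Of these, 64 control probe sets were left out first. Intensities of the other 45037 were quantile-normalized, 16 was added and log2 was taken, so low signals have compressed log2 fold changes. After that, 932 probe sets with several symbols and 9160 with none were left out. The probe set of highest mean signal stood for each of 18193 genes. Groups were compared with limma 3.58.1 (R 4.3.3) in 1 fit of 4 group means with 8 residual degrees of freedom, two-sided, and p-values were adjusted by Benjamini and Hochberg's method across the 18193 genes. The scripts were tested on simulated data. Precision is limited by 3 arrays a group. The columns of per-sample values not used numbered 0.

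The 10 genes and 12 further lists (102 of 117 genes measured) were chosen with earlier results of these data known. Genes named from a list are those with the smallest p in a contrast, and the genes most alike in pattern are the 5 with the highest correlation. H2-Ea, Marchf8, Itgax, Itgam, Mertk, Mr1, Psme1, Erap1, Pdia3, Pdgfra, Pdgfrb, Thy1, Col3a1, H2-K1, H2-D1, Ifng and Prdm1 were named for their role or after their values were seen. The alternatives were other scalings, pseudocounts of 1 and 64, a filter at a mean of 6, other rules for probe sets, a fit of only the arrays compared, trend and robust variance, the replicate block, the methods' two-tailed t-test and leaving out each array.

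Same-numbered arrays deviated together. In the 12 same-numbered pairs of groups compared, the correlation of deviations from the group mean was between 0.13 and 0.44, all over 0.1. Over all 18 same-numbered pairs, 17 were over 0.1 and the lowest was 0.067. Pairs of different numbers lay between -0.386 and 0.073. By mean correlation all 12 arrays were most alike to those of their own number, so the number was taken to pair the arrays.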

Additional observations from a re-analysis of the deposited data

How the results depend on the processing

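Over the alternatives run for the 10 genes, the LPS calls of Tap1 in ΔTrspM cells and of Tap2 in control cells held in every one. The count called higher with LPS in ΔTrspM cells was 1 with no scaling, where the dim array is left dim, and the count in control cells was 1 by the methods' t-test. The count called lower in control cells was 1 when arrays were divided by a trimmed mean and 1 with the replicate block (H2-DMa in both). Leaving out 1 array gave counts of 3 to 4 higher in ΔTrspM cells and 2 to 3 higher in control cells, and 0 for the other directions and contrasts. The filter at a mean of 6 added Ciita in control cells (adjusted p = 0.0468). Tapbp in control cells was lost with only the arrays compared, no scaling and the t-test, and Tap2 (1.13) and Tapbp (0.62) in ΔTrspM cells with no scaling. The median LPS difference of the 10 genes in ΔTrspM cells was 0.034 with no scaling. Ciita in ΔTrspM cells was also lost with median centring (0.92), no scaling (0.22), the mean of the probe sets (0.96) and the t-test.

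Values that were not called changed sign in some settings. With LPS in ΔTrspM cells, no scaling gave H2-Aa -0.46, H2-Eb1 -0.11, Cd74 -0.14 and B2m -0.17, leaving out both LPS-stimulated arrays of replicate 2 gave H2-Aa -0.40, Cd74 -0.13 and B2m -0.011, and the mean of the probe sets gave H2-DMa 0.15. With LPS in control cells, median centring gave H2-Aa 0.087, H2-Eb1 0.17 and Cd74 0.33, the trimmed mean gave H2-Aa 0.018, H2-Eb1 0.10 and Cd74 0.26, no scaling gave Cd74 0.034, leaving out both replicate 2 LPS arrays gave H2-Ab1 -0.46 and B2m -0.020, the mean of the probe sets gave B2m -0.0099, and the replicate block without replicate 2 gave B2m -0.0025. Between genotypes, no scaling gave Ciita -0.46 after LPS and -0.033 unstimulated, and in unstimulated cells the mean of the probe sets gave Ciita -0.12, the trimmed mean gave B2m 0.014 and the block without replicate 2 gave Tap2 0.016.

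Leaving out 1 array at a time, the LPS difference ran in ΔTrspM cells from -0.40 to 0.83 for H2-Aa, 0.42 to 1.94 for H2-Ab1, 0.048 to 1.79 for H2-Eb1, -0.32 to 0.040 for H2-DMa, -0.13 to 0.48 for Cd74 and -0.038 to 0.054 for B2m. In control cells it ran from -0.88 to 0.20 for H2-Aa, -0.46 to 1.08 for H2-Ab1, -0.91 to 0.77 for H2-Eb1, -0.34 to 0.23 for Cd74 and -0.047 to 0.044 for B2m. In unstimulated cells the genotype difference ran from -1.31 to -0.15 for H2-Aa, -1.80 to -0.14 for H2-Ab1, -1.99 to -0.19 for H2-Eb1, -0.30 to 0.0082 for Tap2 and -0.0065 to 0.18 for Ciita. The replicate block changed the calls of H2-Ab1, H2-Eb1 and H2-DMa given above and no other of the 10. A fit without 1 array, or without both LPS-stimulated arrays of replicate 2, leaves the replicate numbers unbalanced. The cause of the changes given in this section was not tested.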
